A study of Mus musculus with 5 samples.

Results

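The interferon-stimulated genes described here are 38 mouse genes taken by name as known interferon targets, of which 32 could be measured in 5 lines of 6DT1 cells on Affymetrix Mouse Gene 1.0 ST arrays. Each gene was represented by the probe set that carried its symbol alone and had the highest mean over the 5 arrays, by the same rule that gave 19938 genes in all. Oas1g, Isg15, Ifi47, Gbp2 and Igtp lay only on probe sets shared with another gene and Ifi44 was on no listed probe set, so that these 6 genes are not reported. Of the 32 genes 29 lay above the lowest tercile of all genes by mean value, and Ifit3, Mx1 and Mx2 did not. 6DT1 is a highly metastatic mouse mammary carcinoma line. The Arid4b knockdown cohort (n = 2 lines) held lines H3 and H4, stably transduced with lentiviral hairpins against Arid4b and low in ARID4B protein. The control cohort (n = 3 lines) was made up of line H5, which carried another Arid4b hairpin but had a normal ARID4B level, the line with a scrambled hairpin in the same pLKO.1 vector, and untransduced 6DT1 cells. All 4 transduced lines were selected with puromycin and grown as pooled clones, whereas the untransduced cells were not selected, so that transduction and selection cannot be told apart. Each line was arrayed once, and a p-value therefore measures the spread between lines, which may be technical in part. All values are log2 expression values normalized by the authors.

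Interferon-stimulated genes are the transcriptional output of interferon signalling. Type I interferons bind a cell surface receptor whose kinases activate the complex ISGF3, which holds STAT2 and IRF9 and binds interferon-stimulated response elements in promoters, whereas interferon gamma acts at gamma-activated sites. Cytosolic sensors of double-stranded RNA induce interferon, and the sensors, the STAT and IRF factors and the enzymes that block viral RNA are themselves among the induced genes. Each transduced line carried a short hairpin RNA delivered by a viral vector, and the genes were examined in each line relative to untransduced cells as well as for the effect of Arid4b knockdown.

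Arid4b itself was at 6.88 (H3) and 7.35 (H4), against 8.24 (H5), 8.34 (scrambled) and 8.36 (untransduced), so that the targeted gene followed the labels, with a difference of -1.20 between the cohorts (standard error 0.15, adjusted p = 0.217 from limma). The median over all genes was 6.83 on the H3 array and 6.73 to 6.77 on the other arrays, and the probe sets of H3 had an SD of 2.25, where those of the other arrays had 2.29 to 2.30. H3 was the highest of the 5 lines in 41.5% of all genes, and counts that rest on H3 are given with that in view. The keratin genes Krt8 and Krt18 of simple epithelium lay between 11.57 and 12.26 in every line, whereas the epithelial adhesion genes Epcam and Cdh1 lay between 5.61 and 6.16. None of 7 epithelial markers and none of 7 fibroblast and endothelial markers passed an unadjusted p under 0.05 from limma in either of the comparisons below. Of 8 leukocyte markers Cd68 and Csf1r passed it, both higher in the knockdown cohort (2 of 8, against 4.34% of all genes). The median knockdown difference of the 8 was 0.08. The log2 of the summed level of the list was 11.32 and 11.39 in H3 and H4 against 10.58 to 10.72 in the control lines. Most of that sum is Cd68, at 10.96 in H3 and H4 against 9.93 to 10.07 in the control lines. Csf1r was between 5.26 and 5.54 in every line. The pan-leukocyte marker Ptprc was between 4.98 and 5.15 in every line, and the part of these markers in the results was not tested.

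The promoters of 4 of the genes that varied most between the lines are shown because they hold the core of the interferon-stimulated response element, the sequence through which ISGF3 acts. The core was searched as GAAA, any 2 bases, then GAAA, on both strands, and is in capitals in the windows printed on the strand of the gene, where a core on the opposite strand reads as TTTC, any 2 bases, then TTTC. It was found in 13 of the 23 measured genes for which RefSeq (GRCm38.p6) gave a promoter window of 250 bases before to 50 bases after the start site, or 56.5%, against 3.99% of all 27025 genes with a window. The gamma-activated site, searched as TTCNNNGAA on both strands, was found in 7 of the 23 genes (30.4%) against 9.55% of all genes. None of the 4 windows shown holds it, and in Bst2 it overlapped a core. Gbp3 (chr3:142559794-142560093, plus strand) held 2 overlapping cores that began at -45 and -39, counted with the start site at 0, Oas3 (chr5:120777610-120777909, minus strand) held 1 that began at -75, Irgm1 (chr11:48871371-48871670, minus strand) held 2 that began at -30 and -24, and Trim30a (chr7:104465144-104465443, minus strand) held 1 that began at -36. A match describes the letters of the window and not the binding of a factor.
Gbp3: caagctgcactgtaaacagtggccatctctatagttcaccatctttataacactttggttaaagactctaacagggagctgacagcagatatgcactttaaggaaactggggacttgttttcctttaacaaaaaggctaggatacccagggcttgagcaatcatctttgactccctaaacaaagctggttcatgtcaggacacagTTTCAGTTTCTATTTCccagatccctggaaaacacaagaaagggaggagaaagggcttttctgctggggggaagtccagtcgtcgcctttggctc
Oas3: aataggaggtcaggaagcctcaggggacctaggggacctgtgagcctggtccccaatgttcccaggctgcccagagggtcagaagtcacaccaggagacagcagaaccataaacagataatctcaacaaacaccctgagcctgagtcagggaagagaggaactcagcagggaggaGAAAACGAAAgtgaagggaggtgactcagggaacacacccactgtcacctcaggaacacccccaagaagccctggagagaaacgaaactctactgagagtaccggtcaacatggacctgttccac
Irgm1: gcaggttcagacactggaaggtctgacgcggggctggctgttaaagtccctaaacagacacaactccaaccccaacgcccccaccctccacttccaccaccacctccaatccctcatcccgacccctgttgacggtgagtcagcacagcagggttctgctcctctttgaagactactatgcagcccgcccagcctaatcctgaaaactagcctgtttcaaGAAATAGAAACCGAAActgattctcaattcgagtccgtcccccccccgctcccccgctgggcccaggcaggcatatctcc
Trim30a: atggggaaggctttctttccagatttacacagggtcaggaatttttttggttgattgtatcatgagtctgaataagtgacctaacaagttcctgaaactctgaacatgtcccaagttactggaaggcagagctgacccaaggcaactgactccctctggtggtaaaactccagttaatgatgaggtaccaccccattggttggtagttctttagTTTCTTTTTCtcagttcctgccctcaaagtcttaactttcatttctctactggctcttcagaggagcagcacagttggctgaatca

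Most of the 32 genes lay above their level in untransduced cells in each transduced line. There were 23 such genes in H3, where 58.5% of all genes also did, 28 in H4 (against 45.9% of all genes), 29 in H5 (against 44.9%) and 31 with the scrambled hairpin (against 44.1%). Relative to untransduced cells the median log2 difference of the 32 genes was 0.14 (H3), 0.44 (H4), 0.33 (H5) and 0.50 (scrambled), where the medians over all genes were 0.05 in H3 and 0.00 in each of the other lines. These 4 differences share the single untransduced array, and with 1 array per line they carry no test. A gene was counted where it differed by more than 0.5 on the log2 scale. By that count 16 of 32 genes were higher in the scrambled line (50%, against 1.58% of all genes) and none was lower (against 1.93%). In H4 14 were higher (43.8%, against 3.70% of all genes) and none was lower (against 5.49%), and in H5 9 were higher (28.1%, against 0.818%) and none was lower (against 0.497%). H3 had the fewest, with 4 higher (12.5%, against 2.43%) and Irgm1 lower (3.12%, against 7.90%). The H3 array differs from the others in its median and SD, and with quantile normalization 7 genes were higher in H3 (against 3.44% of all genes).

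**Figure D1:**
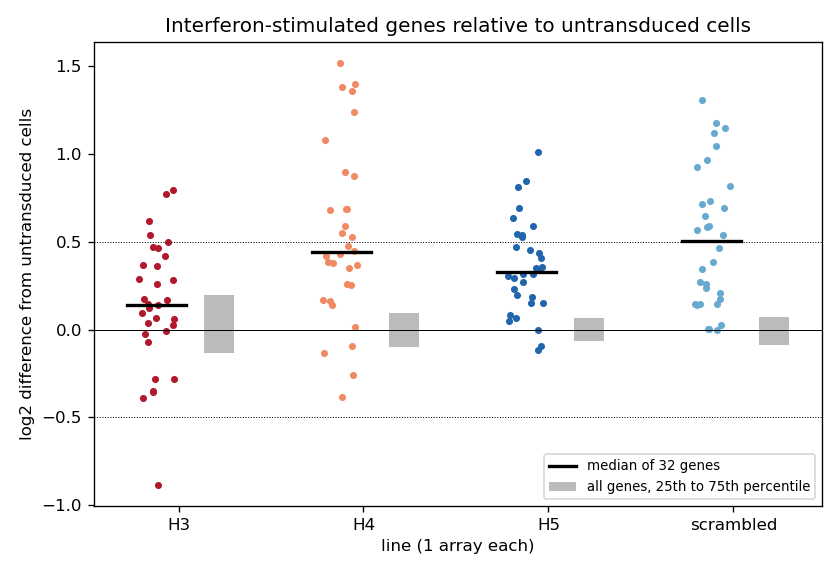
Log2 difference from untransduced cells (vertical axis) of the 32 measured interferon-stimulated genes (points) in each of the 4 transduced lines (horizontal axis), with their median (black line), the interquartile range of all genes (grey bar) and dotted lines at 0.5 and -0.5. The medians are 0.14 (H3), 0.44 (H4), 0.33 (H5) and 0.50 (scrambled), and the H3 points lie lowest.

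The order of the lines was uneven in the same way. Untransduced cells were the lowest of the 5 lines in 21 of 32 genes (65.6%, against 24.5% of all genes) and the highest in none (against 19.7%). H4 was the highest line in 17 genes (53.1%, against 17.2% of all genes) and the scrambled line in 9 (28.1%, against 7.59%). H3 was the highest in Zbp1 alone (3.12%, against 41.5%) and the lowest in 7 genes (21.9%, against 19.8%). Both puromycin-selected control lines, H5 and the scrambled line, lay above untransduced cells in 29 of 32 genes (90.6%, against 33.5% of all genes) and both lay below them in none (against 31.8%).

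**Figure D2:**
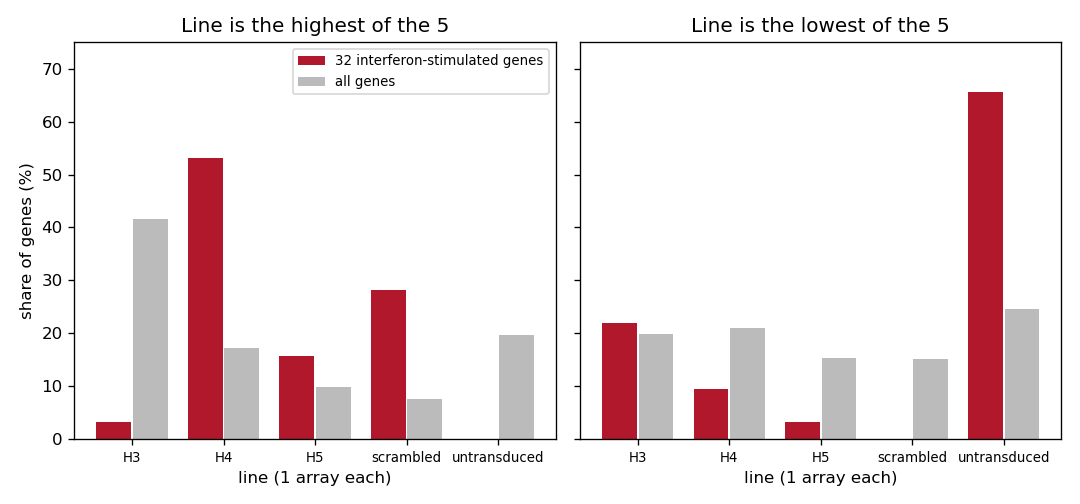
Share of genes in percent (vertical axis) for which each of the 5 lines (horizontal axis) was the highest (left) or the lowest (right), for the 32 measured interferon-stimulated genes (red) and all genes (grey), ties left out. Untransduced cells were the lowest line in 65.6% of the interferon-stimulated genes and in 24.5% of all genes.

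To ask whether selected lines with normal ARID4B differed from untransduced cells, H5 and the scrambled line were compared with the untransduced line in a limma fit over all 5 arrays, in which the single untransduced array is assumed to vary like the others. Oasl2, Dhx58, Irf9, Trim30a, Parp14 and Stat2 were higher at an unadjusted p under 0.05, 6 of 32 genes (18.8%, against 2.72% of all genes), and none was lower (against 2.95%). The median difference of the 32 genes was 0.44, against -0.00 over all genes, and 31 of them had a difference above 0, against 46.6% of all genes. No gene passed an adjusted p under 0.05 from limma over all genes, and the smallest adjusted p of the 32 was 0.861. Only Parp14 passed the unadjusted threshold with an unmoderated equal-variance test (against 2.99% of all genes higher). With 1 line left out the residual spread came from fewer lines. Without H3 or without H4 that spread is the difference between H5 and the scrambled line alone, and the same 9 genes passed, Irf9 and Parp14 among them, against 10.3% of all genes. Without H5 or the scrambled line 1 array is set against 1 and the spread is that between H3 and H4 alone. That spread is also part of the fit over all 5 arrays. With 1 array on each side these fits cannot decide whether the 6 genes differ. Oas1a and Isg20 passed without H5 (against 1.12% of all genes) and Isg20 without the scrambled line (against 0.752%).

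No shared change of these genes was detected with Arid4b knockdown, in a comparison that shares its control lines with the one above. Comparing H3 and H4 with H5, the scrambled line and untransduced cells, Irf1 and Ifit2 were lower and passed an unadjusted limma p under 0.05 (6.25% of the 32 genes, against 7.61% of all genes) and none was higher (against 4.34%). None passed an adjusted p under 0.05 over all genes. Over all genes 866 were higher and 1517 lower at the unadjusted threshold, a split that was 509 and 2041 with array medians subtracted and 1300 and 1332 with quantile normalization. Both knockdown lines lay below every control line in Irf1, Ifit2 and Mx1 (9.38%, against 13.5% of all genes) and above every control line in none (against 13.9%). The median difference was 0.04 over the 32 genes and 0.03 over all genes. It was 0.20 without H3, -0.10 without H4, 0.16 without the scrambled line and -0.11 when the knockdown lines were set against H5 and the scrambled line only, so that its sign depended on the lines that entered. Irf1 passed the unadjusted threshold in each of these comparisons.

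**Figure D3:**
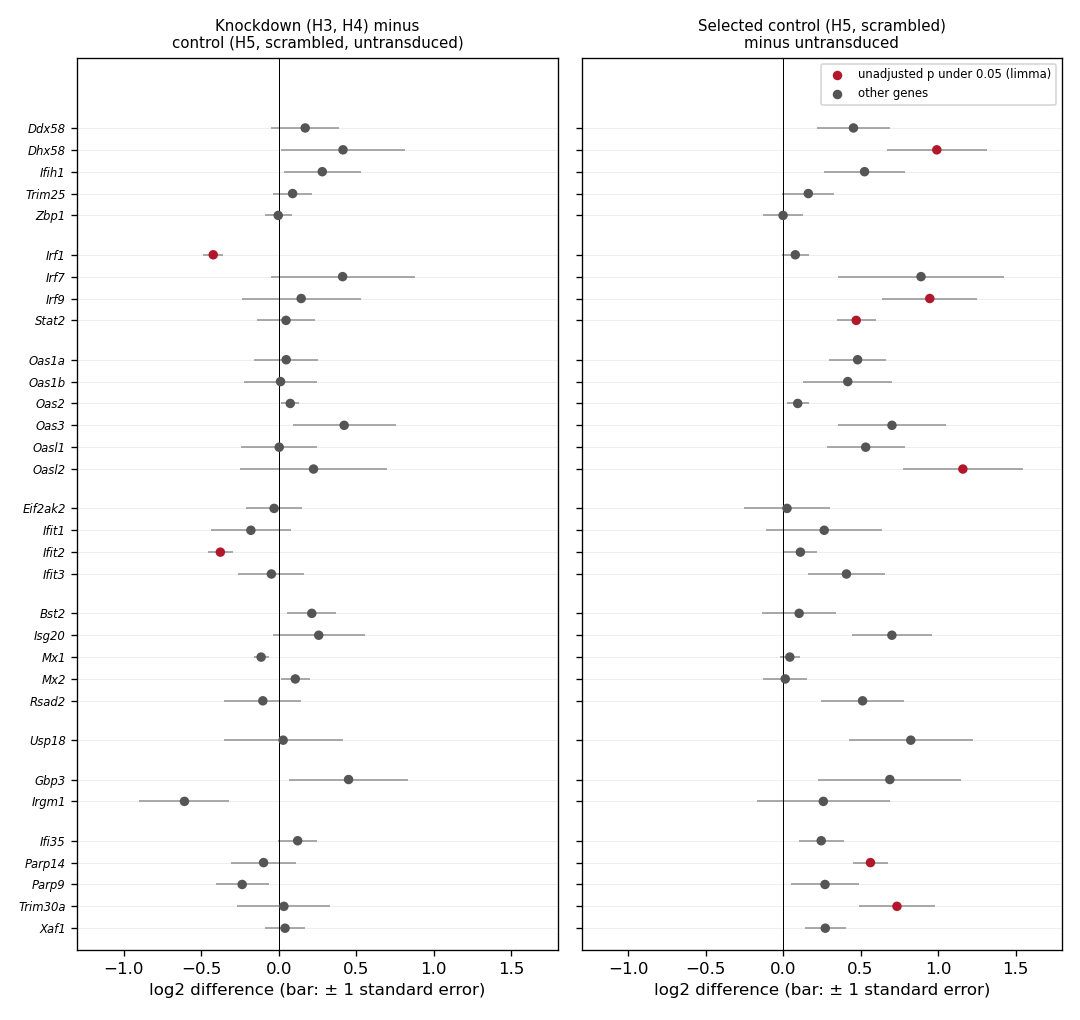
Log2 difference (horizontal axis) with its standard error from limma for each of the 32 measured interferon-stimulated genes (rows, grouped by role), for knockdown minus control lines (left) and for selected control lines minus untransduced cells (right). Red points passed an unadjusted p under 0.05. On the left Irf1 (-0.42) and Ifit2 (-0.38) did so, and on the right 6 genes, led by Oasl2 (1.16).

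The helicases that sense RNA in the cytosol were lowest in untransduced cells. Dhx58, which encodes LGP2, a helicase that tunes the signalling of its relatives, was at 8.05 (H3), 8.62 (H4), 8.07 (H5) and 8.44 (scrambled), against 7.26 in untransduced cells, and the difference of the selected control lines from untransduced cells was 0.99 (standard error 0.32, adjusted p = 0.868 from limma). All 4 transduced lines exceeded untransduced cells. Ifih1, which encodes MDA5, a sensor of long double-stranded RNA, was at 7.25 (H3), 7.78 (H4), 7.36 (H5), 7.47 (scrambled) and 6.89 (untransduced). Ddx58, which encodes RIG-I, the sensor of uncapped viral RNA ends, was at 10.12 (H3), 10.55 (H4), 10.21 (H5), 10.43 (scrambled) and 9.86 (untransduced). Both had the order of Dhx58, with H4 highest, then the scrambled line, H5 and H3, but with differences of the selected control lines of 0.53 (standard error 0.26) and 0.45 (standard error 0.23) that did not pass the threshold. Trim25, a ubiquitin ligase of the RIG-I pathway, spanned 0.37 over the lines. Zbp1, a sensor of Z-form nucleic acids, spanned 0.26 and had the same deposited value in H5, the scrambled line and untransduced cells.

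Of the transcription factors, the ISGF3 subunits were lowest in untransduced cells. Irf9, the DNA-binding subunit, was at 8.14 (H3), 8.75 (H4), 8.52 (H5) and 8.72 (scrambled), against 7.67 in untransduced cells, and the difference of the selected control lines was 0.95 (standard error 0.31, adjusted p = 0.868 from limma). Stat2 was at 8.10 (H3), 7.89 (H4), 8.04 (H5) and 8.17 (scrambled), against 7.63 in untransduced cells, with a difference of 0.47 (standard error 0.13, adjusted p = 0.861 from limma). Stat2 was among the few genes in which H3 lay above H4. Irf7, the factor that amplifies transcription of type I interferon genes, had the widest range of the 32 genes, at 7.25 (H3), 8.26 (H4), 7.39 (H5), 7.89 (scrambled) and 6.75 (untransduced). The spread between H3 and H4 was 1.02, larger than the difference of the selected control lines of 0.89 (standard error 0.54), which did not pass the threshold.

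Irf1, a factor induced above all by interferon gamma, was the exception among the factors, with both knockdown lines below every control line. It was at 7.87 (H3) and 7.85 (H4), against 8.38 (H5), 8.23 (scrambled) and 8.23 (untransduced). The knockdown mean was 7.86 and the control mean 8.28 ± 0.09 (SD, n = 3), a difference of -0.42 (standard error 0.07, adjusted p = 0.249 from limma). A second probe set of Irf1, with lower values, did not show it: it was at 5.99 (H3) and 5.86 (H4), against 5.86 (H5), 5.97 (scrambled) and 5.98 (untransduced), a difference of -0.01. With the probe sets averaged the difference was -0.22 and still passed the unadjusted threshold.

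The oligoadenylate synthetases, which make the messenger that activates RNase L, and their catalytically divergent relatives lay lowest in untransduced cells or in H3. Oasl2 was at 8.46 (H3), 9.22 (H4), 8.85 (H5) and 9.15 (scrambled), against 7.84 in untransduced cells, the largest difference of the selected control lines among the 32 genes at 1.16 (standard error 0.39, adjusted p = 0.876 from limma). Oas3, which makes long oligoadenylates, was at 8.09 (H3), 8.79 (H4), 8.14 (H5), 8.37 (scrambled) and 7.55 (untransduced). Oasl1, which in mouse cells represses translation of Irf7 mRNA, was at 8.72 (H3), 9.11 (H4), 8.91 (H5), 9.27 (scrambled) and 8.56 (untransduced). In all 3 genes every transduced line exceeded untransduced cells. Oas1a was at 7.28 (H3), 7.44 (H4), 7.30 (H5), 7.64 (scrambled) and 6.99 (untransduced). Oas1b, a determinant of flavivirus resistance in mice, was at 6.27 (H3), 6.87 (H4), 6.73 (H5), 6.66 (scrambled) and 6.28 (untransduced), so that H3 and untransduced cells stood together below the other lines. Oas2 spanned only 0.14.

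Of the genes of the IFIT proteins, which bind foreign RNA and block its translation, Ifit1 and Ifit3 set H3 apart from the other transduced lines. Ifit1 was at 5.63 (H3), 6.40 (H4), 6.20 (H5), 6.36 (scrambled) and 6.02 (untransduced). Ifit3 was at 5.47 (H3), 5.97 (H4), 5.85 (H5), 5.96 (scrambled) and 5.50 (untransduced). H3 was the lowest line in both. Ifit2 was at 6.21 (H3) and 6.31 (H4), against 6.76 (H5), 6.59 (scrambled) and 6.56 (untransduced), so that both knockdown lines lay below every control line, with a difference of -0.38 (standard error 0.08, adjusted p = 0.292 from limma). Without H3 it did not pass that threshold. Eif2ak2, which encodes PKR, the kinase that stops translation on sensing double-stranded RNA, was at 8.09 (H3), 8.63 (H4), 8.28 (H5), 8.52 (scrambled) and 8.37 (untransduced), which here lay in the middle of the lines.

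Of the other antiviral effectors, Isg20 was lowest in untransduced cells and Mx1 and Mx2 hardly varied. Isg20, an exonuclease that degrades RNA, was at 10.73 (H3), 10.63 (H4), 10.39 (H5), 10.92 (scrambled) and 9.95 (untransduced), a difference of the selected control lines of 0.70 (standard error 0.26). Rsad2, which encodes viperin, was at 6.75 (H3), 7.10 (H4), 6.98 (H5), 7.42 (scrambled) and 6.69 (untransduced). Bst2, which encodes tetherin, the protein that holds budding virions at the cell surface, was at 8.14 (H3), 8.63 (H4), 8.17 (H5), 8.24 (scrambled) and 8.10 (untransduced), so that H4 alone stood apart. The dynamin-like GTPases Mx1 and Mx2 spanned 0.18 and 0.28. Mx1 was also below every control line in both knockdown lines, at 4.68 in H3 and 4.66 in H4, against 4.75 to 4.84 in the control lines, without passing the threshold.

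Usp18, the protease that removes ISG15 from proteins and restrains the interferon receptor, was at 8.39 (H3), 8.99 (H4), 8.64 (H5), 9.23 (scrambled) and 8.11 (untransduced). Its difference between the selected control lines and untransduced cells was 0.82 (standard error 0.40) and did not pass the threshold. Of the interferon-inducible GTPases, which act on pathogen-containing vacuoles, Gbp3 was at 7.12 (H3), 8.10 (H4), 7.39 (H5), 7.39 (scrambled) and 6.70 (untransduced). Irgm1 was at 6.49 (H3), 7.38 (H4), 7.68 (H5), 7.58 (scrambled) and 7.37 (untransduced). H3 and H4 thus differed by 0.98 in Gbp3 and by 0.90 in Irgm1, and in Irgm1 H3 alone was low.

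Parp14 and Parp9, members of the ADP-ribosyltransferase family that act in macrophage and antiviral signalling, were highest in the selected control lines. Parp14 was at 7.36 (H3), 7.56 (H4), 7.72 (H5) and 7.77 (scrambled), against 7.18 in untransduced cells, a difference of the selected control lines of 0.56 (standard error 0.11, adjusted p = 0.861 from limma). Parp9 was at 7.84 (H3), 8.29 (H4), 8.42 (H5), 8.36 (scrambled) and 8.12 (untransduced). Trim30a, a TRIM protein that restrains Toll-like receptor signalling in mice, was at 8.78 (H3), 9.10 (H4), 8.96 (H5) and 9.34 (scrambled), against 8.42 in untransduced cells, a difference of 0.74 (standard error 0.24, adjusted p = 0.868 from limma). Every transduced line exceeded untransduced cells in Parp14 and Trim30a. Ifi35 spanned 0.43, and Xaf1, whose product antagonizes an inhibitor of apoptosis, spanned 0.35. Both were lowest in untransduced cells.

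**Figure D4:**
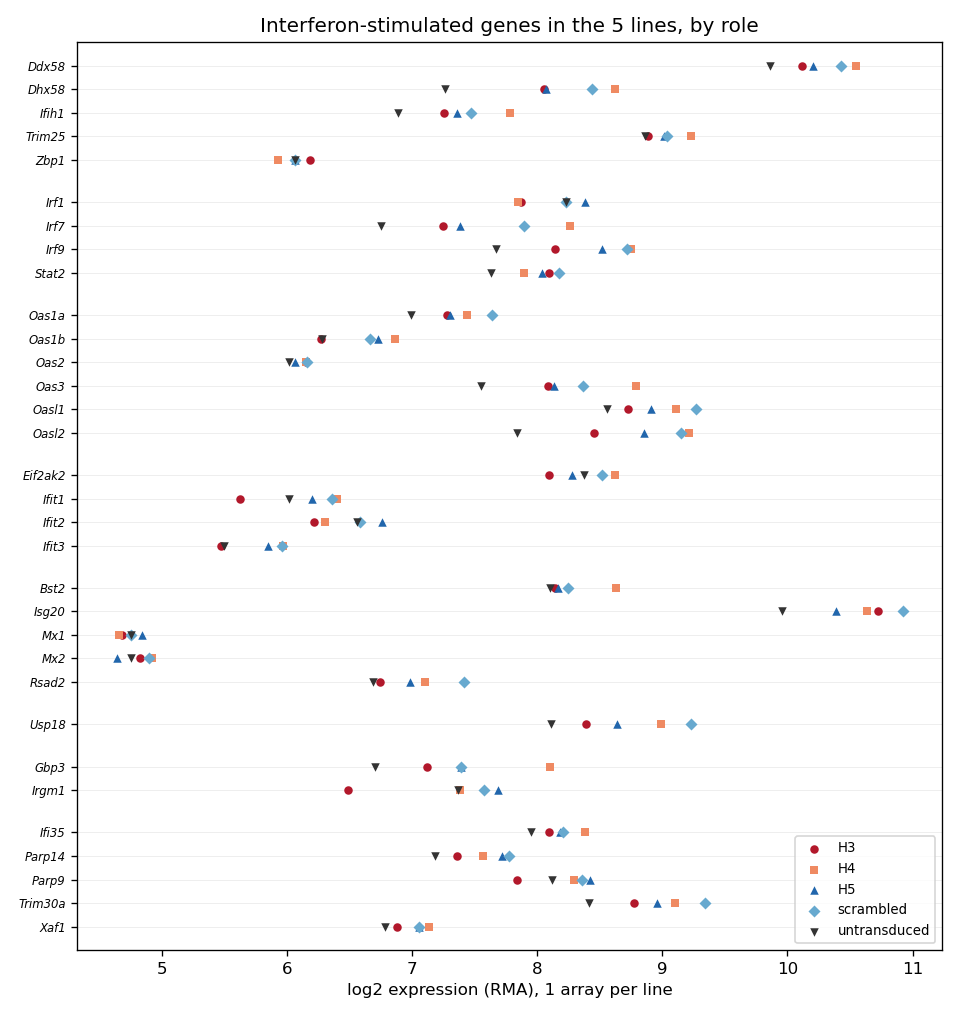
Log2 expression (horizontal axis) of the 32 measured interferon-stimulated genes (rows, grouped by role) by line, each line being 1 point from its single array. Untransduced cells (black) are the leftmost point in 21 genes, among them Irf7 at 6.75 and Oasl2 at 7.84.

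The knockdown lines differed from each other. H4 was above H3 in 26 of 32 genes (81.2%, against 36.7% of all genes), and the median of H3 minus H4 was -0.41, against 0.05 over all genes. H3 was lower than H4 by more than 0.5 on the log2 scale in 13 genes (40.6%, against 4.03% of all genes) and higher in none (against 1.82%). Irf7 (-1.02), Gbp3 (-0.98), Irgm1 (-0.90), Ifit1 (-0.77) and Oasl2 (-0.76) had the largest differences. By role, the median of H3 minus H4 was -0.94 for the 2 interferon-inducible GTPases, -0.60 for Usp18, the 1 measured gene of the ISG15 system, -0.52 for the inhibitors of translation, -0.49 for the oligoadenylate synthetases, -0.43 for the RNA sensing genes, -0.29 for the transcription factors, -0.29 for the ADP-ribosyltransferases and others and -0.10 for the other antiviral effectors. The lines carried different hairpins and each was arrayed once, so that hairpin, line and array cannot be told apart.

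Of the 9 measured interferon genes 3 were lowest in untransduced cells (against 24.5% of all genes). Ifnb1, which encodes interferon beta, was at 5.57 (H3), 5.58 (H4), 5.57 (H5), 5.57 (scrambled) and 5.60 (untransduced). None of the 9 passed the unadjusted threshold in the knockdown cohort. In the selected control lines Ifng was higher by 0.21 (standard error 0.06, 1 of 9 against 2.72% of all genes). Ifnk had a difference of -0.17 (standard error 0.05, 1 of 9 against 2.95%). Ifng had the same deposited value in H4, H5 and the scrambled line, so that its standard error rests in part on ties. Both genes lay below the median over all genes of every array, Ifng at 5.79 to 6.04 and Ifnk at 4.21 to 4.43. The median of the 9 was -0.01 for the selected control lines. Of 9 receptor chains and kinases, Il10rb (-0.39) and Ifnar1 (-0.23), which encode chains of the lambda and the type I interferon receptor, were lower in the knockdown cohort (2 of 9, against 7.61% of all genes), and none passed for the selected control lines. Of 5 other STAT and IRF factors Irf2, an antagonist of Irf1, was higher in the knockdown cohort (0.16, 1 of 5 against 4.34% of all genes).

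Among 13 other sensors and adaptors of nucleic acids, Tlr3, the endosomal receptor for double-stranded RNA (-0.73), Cgas, the cytosolic DNA sensor (-0.54), and Tlr4 (-0.41) were lower in the knockdown cohort as was Tbk1, the kinase that activates IRF3 (-0.24), which makes 4 of 13 against 7.61% of all genes. Ticam1, the adaptor of Tlr3 (0.34), was higher (1 of 13, against 4.34%). Tlr4 was higher by 0.25 in the selected control lines (1 of 13, against 2.72%). Of 13 genes that restrain the response or process RNA and DNA, Ptpn2, a phosphatase of JAK and STAT proteins, was lower in the knockdown cohort (-0.55, 1 of 13 against 7.61%). In the selected control lines Ptpn2 (-0.48) and Rnaseh2b (-0.35) were lower (2 of 13, against 2.95%). Another 42 interferon-stimulated genes outside the 32 had a median of 0.31 for the selected control lines and of -0.05 for the knockdown cohort, and 23 of them were lowest in untransduced cells (against 24.5% of all genes). In the selected control lines 7 were higher (against 2.72% of all genes) and 2 were lower (against 2.95%) at the unadjusted threshold. Sp100 (0.63), Ddx60 (0.59), Gbp7 (0.55), Herc6 (0.41), Tapbp (0.41), Tap1 (0.30) and Parp10 (0.20) were the 7, and Cxcl10 (-0.37) and Psmb10 (-0.28) the others, all named after their values had been seen. In the knockdown cohort Tap1 (0.43) and Parp10 (0.24) were higher (2 of 42, against 4.34% of all genes) and Trim21 (-0.42) and Nampt (-0.38) lower (2 of 42, against 7.61%). None of these passed an adjusted p under 0.05 from limma.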

How the data were processed

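RNA of 5 6DT1 lines was hybridized to 1 Affymetrix Mouse Gene 1.0 ST array each. The deposited table held log2 values, which the authors made by RMA in Partek (versions not given in the sources used here) and which were used as deposited. Of 35556 probe sets 21789 carried a single symbol in the platform annotation, 1621 carried several and 12146 were unnamed here. Gene IDs of 21698 matched RefSeq (GRCm38.p6). Groups were the knockdown and control cohorts of the labels.

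Linear models were fitted over all 19938 genes with limma 3.58.1 in R 4.3.3, with an empirical Bayes variance, no filter and Benjamini-Hochberg adjustment over all genes, and the step was tested on simulated data. The first fit compared 2 knockdown with 3 control lines. The second had a term each for the knockdown lines, the selected control lines and the untransduced line, so that its residual spread also holds the difference between H3 and H4. Single arrays were compared by a limit of 0.5 on the log2 scale without a test. The number of arrays limits the precision.

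Values by line are given for genes past an unadjusted p under 0.05 in either fit or spanning 0.5 or more over the lines, and other genes by their span. Of other lists up to 4 genes past that threshold with the largest knockdown difference were named, and others are marked. The genes and lists were chosen with earlier results of these data known. Alternatives were an unmoderated test, trended and robust priors, subtraction of array medians, quantile normalization, omission of the lowest tercile of genes, the mean over probe sets, puromycin as a covariate, limits of 0.3 and 1, and omission of each line. The untransduced line was not left out of the second fit, which needs it.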

Additional observations from a re-analysis of the deposited data

How the results depend on the processing

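With 1 array per line, differences from untransduced cells rest on a single array. The number of the 32 genes higher in the selected control lines was 6, 1 with the unmoderated test and 1 to 9 with each transduced line left out in turn, beside a share of all genes of 0.752% to 10.3%. The untransduced line could not be left out of this comparison, which rests on it. The number higher in the knockdown cohort was 0, and 0 to 1 with each line left out, beside 2.05% to 24.6% of all genes. With a limit of 0.3 on the log2 scale, 10 genes were higher (against 12.0% of all genes) and 4 lower (15.1%) in H3 than in untransduced cells. In H4 22 were higher (8.43%) and 1 lower (11%), in H5 19 were higher (3.21%), in the scrambled line 19 were higher (4.61%), and 20 were lower in H3 than in H4 (10.1%). With a limit of 1 there were 0 higher (0.246%) and 0 lower (1.06%) in H3, 6 higher in H4 (0.657%), 1 higher in H5 (0.0451%), 5 higher in the scrambled line (0.181%), and 1 lower in H3 than in H4 (0.456%). With quantile normalization 7 genes were higher in H3 (3.44%). The median knockdown difference was -0.00 with array medians subtracted and 0.09 with quantile normalization. Irf1 passed the unadjusted threshold in 12 of 12 alternatives and Ifit2 in 11. Of the 6 genes higher in the selected control lines, Parp14 passed in 8 of 10 alternatives, Irf9 in 7 and the others in 5 each. In the knockdown comparison puromycin as a covariate and omission of the untransduced line are the same fit, counted separately. For the selected control lines the fits without H3 and without H4 are also the same fit, counted separately. Those without H5 or the scrambled line set 1 array against 1 and cannot decide on the 6 genes, though they enter these counts. Irf1, Ifit2 and the 6 genes did not change direction, but several alternatives keep the estimate and could not change it. These are the unmoderated test, the trended and robust priors and omission of the lowest tercile. The mean over probe sets could change Irf1 alone. Omission of H3 or H4 keeps the difference between the selected control lines and untransduced cells, so that it could not change the direction of the 6 genes. No paired analysis was possible because the cohorts share no replicate that the labels pair.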
